A study of Homo sapiens with 2 samples.

Results

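The genes that make and break down hyaluronan, and that supply its precursor UDP-glucuronic acid, were examined in KYSE30-Luc-GFP, an established cell line from a human esophageal squamous cell carcinoma. Members were taken by gene symbol from the deposited gene table and all 10 of 10 were found among its 60725 genes: the synthases HAS1, HAS2 and HAS3, the hyaluronidase family genes HYAL1, HYAL2 and HYAL3, the depolymerisation genes CEMIP and TMEM2, and the precursor enzymes UGDH and UGP2. The CD44 high library came from the cells with the strongest staining for CD44, a surface receptor of hyaluronan, and the CD44 low library from the cells with the weakest. All cells carried luciferase and GFP, introduced by lentivirus and drug selection, and had been grown in serum-containing medium before staining and sorting, with no further treatment. Polyadenylated RNA was sequenced, and each group is 1 library of 1 sorted cell line, so nothing below could be checked in a replicate and no test across libraries exists. Every interval is a 95% interval for counting error only. In bulk RNA, fewer cells that express a gene and less RNA per cell cannot be told apart.

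Hyaluronan is a long unbranched sugar polymer of the extracellular matrix, built of alternating glucuronic acid and N-acetylglucosamine. Unlike the other glycosaminoglycans, it is made at the plasma membrane and carries no core protein. The HAS enzymes join UDP-glucuronic acid and UDP-N-acetylglucosamine and extrude the growing chain. Hyaluronidases at the surface and in lysosomes cut it into shorter pieces, which lysosomal exoglycosidases finish. In stratified squamous epithelium hyaluronan fills the space between living keratinocytes, where CD44 is its main receptor.

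The sequences shown here are the 250 bases before 3 starts that the results below turn on, with a further HYAL2 start for comparison. RefSeq promoter windows (GRCh38.p14, 250 bases before to 50 after a start) were found for 9 of the 10 members, as 11 windows. The member without a window was HAS2, so no HAS2 sequence is shown and the searches of the windows leave it out. UGDH lies head to head with its antisense RNA UGDH-AS1, and in its sequence (chr4:39527440-39527689, minus strand) capitals mark the 101 bases that the UGDH-AS1 window also holds. The deposited annotation places the start of the main UGDH transcript at 39527618, inside the capital stretch, so its exact base is uncertain. In the HAS3 sequence (chr16:69107290-69107539, plus strand) capitals mark the single match to the GC box GGGCGG, searched on both strands.
UGDH: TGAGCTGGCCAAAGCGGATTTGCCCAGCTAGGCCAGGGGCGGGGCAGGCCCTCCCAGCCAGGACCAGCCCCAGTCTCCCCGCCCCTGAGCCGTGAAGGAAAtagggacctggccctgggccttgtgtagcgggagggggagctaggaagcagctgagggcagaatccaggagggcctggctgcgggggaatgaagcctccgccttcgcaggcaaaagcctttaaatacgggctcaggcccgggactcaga
HAS3: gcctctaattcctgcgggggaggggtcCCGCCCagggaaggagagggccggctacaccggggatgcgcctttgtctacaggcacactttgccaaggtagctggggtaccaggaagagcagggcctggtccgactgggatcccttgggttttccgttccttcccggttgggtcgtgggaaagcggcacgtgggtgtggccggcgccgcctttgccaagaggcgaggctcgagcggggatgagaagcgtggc

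HYAL2 has a pair of main transcripts that begin at different first exons, and their use differed between the libraries (below). The sequence before the upstream start is from the RefSeq table (chr3:50322746-50322995, minus strand), and the one before the downstream start was read from GRCh38 (chr3:50321714-50321963, minus strand). Capitals mark CG pairs, of which the upstream sequence holds 9 and the downstream one 14. The deposited tables place the upstream start at 50322906, inside the first of these sequences, so its exact base is uncertain.
HYAL2 upstream start: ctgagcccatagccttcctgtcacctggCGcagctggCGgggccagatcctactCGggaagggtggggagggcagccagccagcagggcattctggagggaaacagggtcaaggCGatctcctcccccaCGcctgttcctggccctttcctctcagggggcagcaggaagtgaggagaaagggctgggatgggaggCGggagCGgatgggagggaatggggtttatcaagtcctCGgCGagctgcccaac
HYAL2 downstream start: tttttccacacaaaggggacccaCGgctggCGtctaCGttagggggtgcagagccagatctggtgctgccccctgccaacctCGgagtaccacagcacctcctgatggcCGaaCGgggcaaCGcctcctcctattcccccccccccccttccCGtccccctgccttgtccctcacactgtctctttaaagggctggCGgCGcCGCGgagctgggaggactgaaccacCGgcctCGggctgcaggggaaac

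All member windows were rich in G and C, at 65.0% to 73.0% of bases, against a median of 58.7% over the 35116 windows of the table. GGGCGG was present on either strand in 10 of the 11 member windows and in 45.0% of all windows. Of the 9 members with a window, HYAL2 was the one without it, and HAS2 was not searched. The AP-1 letters TGANTCA were found in 0 of the 11 windows, against 7.71% of all windows, and TATAAA in 1, that of CEMIP, against 11.5%. A match describes the letters of these windows and nothing about the binding of a factor.

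The libraries held 21633236 expected counts (CD44 high) and 22859583 expected counts (CD44 low). An expected count is the number of reads that RSEM assigned to a gene. Ratios are CD44 high over CD44 low after median-of-ratios scaling of these counts, and TPM, which also corrects for transcript length, is used where genes are compared with each other. CD44 itself (chr11:35138870-35232402) had 22819 counts in CD44 high cells, against 9727 in CD44 low cells, 2.35-fold higher (2.29 to 2.41), in the direction of the sort. Mitochondrial genes took 7.50% of counts in CD44 high and 14.0% in CD44 low, and the median log2(TPM + 1) ratio over 14672 genes was 0.15, so small TPM differences are to be read against that shift. Of the markers of other cell types, 6 of 8 fibroblast markers had under 3 counts in both libraries (summed level of all 8, 4.84 TPM in CD44 high and 6.58 TPM in CD44 low), with COL1A2, DCN, LUM, PDGFRA and THY1 at 0. The 4 endothelial markers summed to 0.38 TPM (CD44 high) and 0.06 TPM (CD44 low), with LYVE1 at 0, and the 5 leukocyte markers to 4.96 and 3.20 TPM in the same order, nearly all CD68, with CD3E and MS4A1 at 0. The 4 mesothelial markers summed to 67.7 TPM in CD44 high and 44.8 TPM in CD44 low, in which CALB2 was higher (36.2 TPM in CD44 high, 5.41 TPM in CD44 low) and MSLN and UPK3B were not. The 7 squamous markers summed to 550.3 TPM in CD44 high and 685.3 TPM in CD44 low. In that sum EPCAM was higher in CD44 high (324.4 TPM, against 242.0 TPM in CD44 low), whereas KRT6A was lower (50.5 TPM in CD44 high, 179.6 TPM in CD44 low), as were TP63 (41.0 TPM in CD44 high, 76.0 TPM in CD44 low) and DSG3 (21.1 TPM in CD44 high, 43.6 TPM in CD44 low). KRT5, a defining keratin of basal squamous cells, had 0 counts in CD44 high and 8 in CD44 low.

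A member was counted as different where 1 library or both held 50 counts or more, the ratio was 2-fold or larger, and the interval left out equality. Of the 8 members with enough counts, 1 was lower in the CD44 high library (HAS2) and 0 were higher, against 4.2% lower and 1.24% higher of the 12371 genes counted. At 1.5-fold, 3 were lower (HAS2, UGDH and TMEM2) and 1 was higher (HYAL3), against 10.4% and 4.93% of all genes. By the interval alone, 4 were lower and 2 higher, against 31% and 32.4% of all genes, so that at this depth a difference beyond counting error was common. The 4 lower included HAS3, at a ratio of 0.97 (0.94 to 0.999), whose direction changed with the scale. The median log2 ratio of these 8 members was -0.14, and that of all 13893 genes with 20 counts or more was -0.01. HAS1 and HYAL1 had too few counts to be judged.

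**Figure D1:**
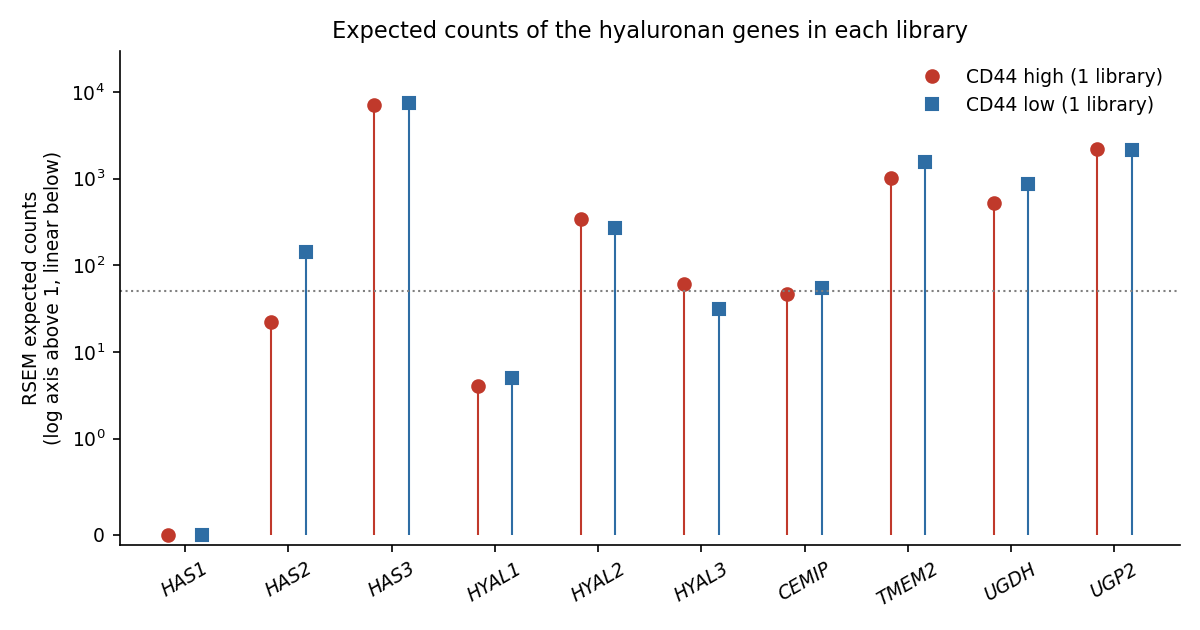
Expected counts of each member in the CD44 high library (red circles, left of each pair) and the CD44 low library (blue squares, right); the axis is logarithmic above 1, and the dotted line marks 50 counts. HAS2 shows the widest gap, 22 in CD44 high and 142 in CD44 low, while HAS3 has 7135 in CD44 high and 7390 in CD44 low and HAS1 at 0 in both.

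Hyaluronan synthase RNA was nearly all HAS3 in both libraries. HAS3 (ENSG00000103044, chr16:69105564-69118719), the synthase that is prominent in epithelia, had 7135 counts in CD44 high cells and 7390 in CD44 low cells, a ratio of 0.97 (0.94 to 0.999). In TPM it was 130.8 in CD44 high and 121.4 in CD44 low, so the direction of this small difference turns with the scale. With mitochondrial genes left out of the TPM, the log2(TPM + 1) difference of HAS3 was -0.13. HAS3 made up 99.7% of the summed synthase TPM in CD44 high and 98.3% in CD44 low. The transcript ENST00000306560, whose start is the one shown in the HAS3 sequence, had 6986 counts in CD44 high and 7211 in CD44 low, or 97.9% and 97.6% of the counts of the gene in the same order. In GENCODE release 44 it codes for 553 residues.

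HAS2 stood apart from HAS3. HAS2 (ENSG00000170961, chr8:121612116-121641390), the synthase that is essential in the mouse embryo and prominent in mesenchymal cells, had 22 counts in CD44 high cells and 142 in CD44 low cells. It was 6.45-fold lower in CD44 high (4.10 to 10.6), at 0.36 TPM in CD44 high and 2.12 TPM in CD44 low. On the log2 scale the difference was -2.66, and 36 of the 12371 genes had a lower ratio. On log2(TPM + 1), which compresses low levels, it was -1.20. HAS2 supplied 0.274% of synthase TPM in CD44 high and 1.72% in CD44 low. The 3 synthases together summed to 131.2 TPM in CD44 high and 123.5 TPM in CD44 low. In counts they summed to 7157 in CD44 high and 7532 in CD44 low, a ratio of 0.95 (0.92 to 0.98). As with HAS3, the direction of this small difference turns with the scale. Some markers of cell types were lower in CD44 high together with HAS2, and others were higher. The lower squamous markers included KRT6A, KRT14, DSG3, TP63 and CDH1, with log2 ratios of -1.93, -1.51, -1.20, -1.05 and -0.46. EPCAM of the same list was higher, at 0.34. Among other lists, CALB2 (2.44) of the mesothelial markers and CD68 (1.06) of the leukocyte markers were higher. The remaining mesothelial markers were mixed. WT1 was at 0.83 but had only 27 counts in CD44 high and 15 in CD44 low, while MSLN (-0.52) and UPK3B (-0.17) lay on the lower side. Of the fibroblast markers, COL1A1 had 175 counts in CD44 high and 292 in CD44 low, and COL3A1 had 3 and 21 in the same order, while the other 6 had at most 1. Their part in the result was not tested.

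The antisense RNA HAS2-AS1, which overlaps the first exon region of HAS2 on the opposite strand, had 3 counts in CD44 high and 11 in CD44 low, a ratio of 0.27 whose interval (0.05 to 1.03) includes equality. The sources used here do not say whether reads were counted by strand, so reads of HAS2 and HAS2-AS1 cannot be told apart where they overlap. HAS1 had 0 counts in both libraries. A count of 0 allows a level of up to 3 counts of the 21633236 in CD44 high and of the 22859583 in CD44 low.

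Among 2196 protein coding genes with CD44 low counts within 2-fold of those of HAS2, the 3 with the nearest log2 ratio were NETO1, GATSL3 and FAM213A. NETO1, an auxiliary protein of glutamate receptors, had 42 counts in CD44 high and 262 in CD44 low, 0.04 from HAS2 in log2 ratio. GATSL3, an arginine sensor upstream of mTORC1, had 17 counts in CD44 high and 106.9 in CD44 low, with fractional counts that show reads shared with another gene. FAM213A, a peroxiredoxin-like protein, had 27 counts in CD44 high and 168 in CD44 low. With 1 library a group, likeness here is likeness of a single ratio.

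**Figure D2:**
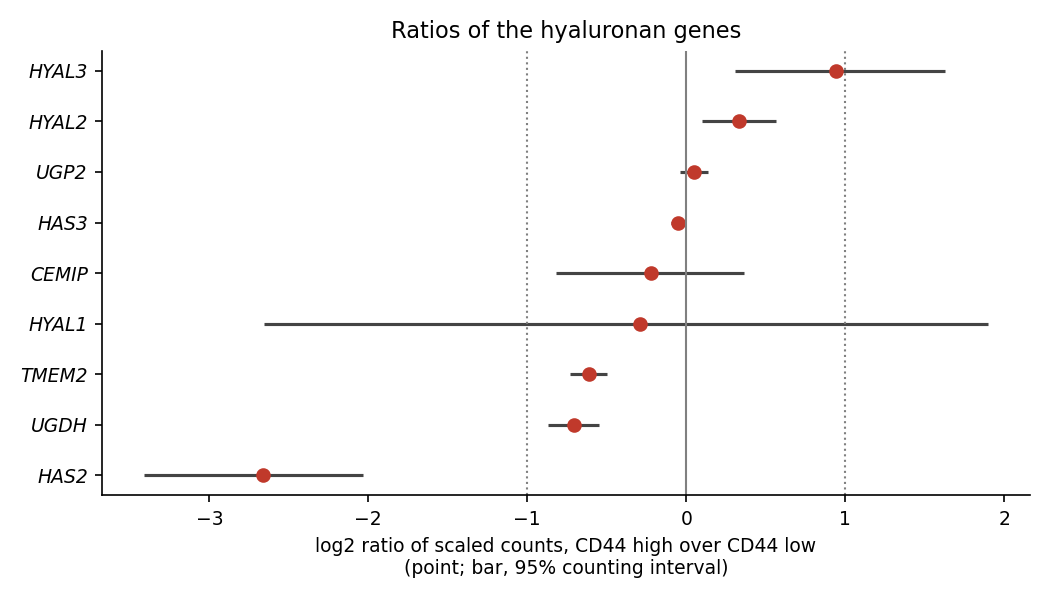
The log2 ratio of scaled counts, CD44 high over CD44 low, of the 9 members with counts, with the 95% counting interval as a bar; dotted lines mark 2-fold. HAS2 lies at -2.66 with its whole interval beyond the line, UGDH and TMEM2 lie at -0.71 and -0.61, and the interval of HYAL1 spans almost the whole axis.

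The breakdown genes lay on both sides of equality, none past 2-fold. HYAL2 (ENSG00000068001, chr3:50317790-50322906), a membrane-anchored enzyme that cuts high molecular weight hyaluronan into intermediate fragments, had 342 counts in CD44 high and 272 in CD44 low, 1.26-fold higher (1.07 to 1.48). In TPM it was 12.0 in CD44 high and 8.76 in CD44 low. HYAL1 (chr3:50299889-50312381), the lysosomal enzyme that acts after it, had 4 counts in CD44 high and 5 in CD44 low. No difference in HYAL1 was detectable at this depth, with an interval from 0.16 to 3.72.

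HYAL3 (ENSG00000186792, chr3:50292831-50299468), a family member of unsettled function, had 60.3 counts in CD44 high and 31.2 in CD44 low. Its ratio was 1.94 (1.24 to 3.09), a log2 ratio of 0.94, and 1.39% of the 12371 genes had a higher one. These counts are fractional because HYAL3 overlaps the acetyltransferase gene NAT6 (chr3:50296402-50299421) on the same strand, which had 81.7 counts in CD44 high and 75.8 in CD44 low. The pair together had 142 counts in CD44 high and 107 in CD44 low, a ratio of 1.33 (1.03 to 1.72). A pooled ratio must lie between those of the 2 genes. It therefore does not show how far the larger ratio of HYAL3 depends on the division of reads, which was not tested.

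TMEM2 and CEMIP are relatives outside the HYAL family. TMEM2 (ENSG00000135048, chr9:71683366-71816690, named CEMIP2 in newer annotation), described as a cell surface hyaluronidase, had 1010 counts in CD44 high and 1548 in CD44 low, 1.53-fold lower (1.41 to 1.66). It was the most abundant breakdown gene, at 16.5 TPM in CD44 high and 24.6 TPM in CD44 low, and 9.68% of genes had a lower ratio. CEMIP (ENSG00000103888, chr15:80779343-80951776), which skin fibroblasts need to depolymerise hyaluronan, had 47 counts in CD44 high and 55 in CD44 low. Its ratio of 0.86 has an interval (0.57 to 1.29) that includes equality.

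Of the precursor enzymes, UGDH was lower in CD44 high, and the interval of UGP2 included equality. UGP2 (ENSG00000169764, chr2:63840940-63891562), which makes UDP-glucose from glucose 1-phosphate, had 2188 counts in CD44 high and 2120 in CD44 low, a ratio of 1.03 (0.97 to 1.10). UGDH (ENSG00000109814, chr4:39498755-39528311), which oxidises UDP-glucose to the UDP-glucuronic acid that the synthases use, had 530 counts in CD44 high and 867 in CD44 low. It was 1.63-fold lower in CD44 high (1.46 to 1.82), at 15.6 TPM in CD44 high and 24.2 TPM in CD44 low, and 7.72% of genes had a lower ratio.

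A pair of genes beside UGDH was lower too. UGDH-AS1 begins at 39528019, inside the deposited span of UGDH, and runs away from it on the opposite strand. Its RefSeq promoter window, which begins at 39527589 and shares the capital stretch of the UGDH sequence, is not the window of that deposited start. The exact start of UGDH-AS1 is therefore uncertain. UGDH-AS1 had 5 counts in CD44 high and 30 in CD44 low, a ratio of 0.17 (0.05 to 0.43), and was under the minimum of 50 counts. SMIM14 (chr4:39546330-39639090), a small membrane protein gene that UGDH-AS1 overlaps on the opposite strand, had 487 counts in CD44 high and 1018 in CD44 low, 2.09-fold lower, but -0.52 and so within 2-fold on log2(TPM + 1). LIAS, the lipoic acid synthase gene on the other side of UGDH, had 372 counts in CD44 high and 353 in CD44 low, a ratio of 1.05 (0.91 to 1.22). The UGDH transcripts that reach past 39528019 had few counts. ENST00000505698 had 0 in both libraries, and ENST00000515398 had 0 in CD44 high and 1.07 in CD44 low. The share of UGDH-AS1 reads within the counts of its partners was not tested.

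The list of neighbours and antisense RNAs held 18 genes in the table, of which 13 had at least 50 counts, with 1 lower past 2-fold (SMIM14) and 0 higher. In the gene cluster of chromosome 3 that holds HYAL1, HYAL2 and HYAL3, 8 of 11 listed neighbours had at least 50 counts. By the interval alone 2 of these 8 were higher and 0 lower, against 32.4% higher and 31% lower of all 12371 genes. The other 6 included equality, with ratios of 0.92 to 1.17. The tumour suppressor RASSF1, named after its value was seen, had 178 counts in CD44 high and 95 in CD44 low, a ratio of 1.88 (1.45 to 2.43). IFRD2, next to HYAL3, had 906 counts in CD44 high and 616 in CD44 low, a ratio of 1.47 (1.33 to 1.63). TUSC2, which overlaps HYAL2 on the same strand, had 337 counts in CD44 high and 327 in CD44 low, a ratio of 1.03 (0.88 to 1.2).

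By TPM the members ran in the order HAS3, UGP2, TMEM2, UGDH and HYAL2 in both libraries. TMEM2 and UGDH, next to each other, were 16.5 and 15.6 TPM in CD44 high and 24.6 and 24.2 TPM in CD44 low, too close to be ordered. The lower ranks differed between the libraries. HAS2 was sixth in CD44 low but lay below HYAL3 (3.0 TPM), CEMIP (0.49 TPM) and HYAL1 (0.42 TPM) in CD44 high, where HAS2, CEMIP and HYAL1 rest on 4 to 47 counts and cannot be ordered.

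Transcript use was compared for the 5 members with at least 200 counts in both libraries, as shares of the TPM of a gene. The widest gap was in HYAL2. ENST00000357750, which begins at the upstream first exon, had 137.5 counts and 40.7% of HYAL2 TPM in CD44 high, against 19.8 counts and 7.31% in CD44 low. As a share of counts this was 40.2% (exact binomial interval 34.8% to 45.5%) in CD44 high and 7.28% (4.55% to 11.1%) in CD44 low. ENST00000395139, which begins at the downstream exon, had 183.7 counts in CD44 high and 211.7 in CD44 low, a ratio of 0.87 (0.71 to 1.06). The other transcripts with an upstream start and counts were not higher. ENST00000447092 had 13.0 counts in CD44 high and 17.9 in CD44 low, and the retained intron transcript ENST00000481597 had 4.48 and 17.7 in the same order, a ratio of 0.25 (0.05 to 0.68). With ENST00000357750 these summed to 154.9 counts in CD44 high and 55.4 in CD44 low, 2.80-fold higher (2.06 to 3.91). In GENCODE release 44 both main transcripts hold the same coding sequence of 473 residues. Intervals of transcripts leave out the error of dividing reads between transcripts that share exons.

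UGDH, TMEM2 and UGP2 had smaller gaps, at most 9.51 percentage points. For UGDH the full-length ENST00000316423 (494 residues) was 61.8% of TPM in CD44 high and 54.5% in CD44 low, and the shorter ENST00000507089 (397 residues) was 17% in CD44 high and 24.7% in CD44 low. The counts of both were lower in CD44 high, with ratios of 0.66 (0.58 to 0.74) and 0.40 (0.29 to 0.54). For TMEM2, ENST00000377044 (1383 residues) had a ratio of 0.78 (0.70 to 0.88) and ENST00000377066 (1320 residues) one of 0.43 (0.35 to 0.53). A retained intron transcript of TMEM2, ENST00000377057, had 155.5 counts in CD44 high and 288.2 in CD44 low, a ratio of 0.54 (0.44 to 0.66). Another, ENST00000474495, had the widest share gap of TMEM2, at 2.12% of TPM in CD44 high and 11.4% in CD44 low. It rests on 3.05 counts in CD44 high and 27.2 in CD44 low. For UGP2, ENST00000394417 (497 residues) had 1377 counts in CD44 high and 1128 in CD44 low, while ENST00000445915 had 0 counts in CD44 high and 95.7 in CD44 low.

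HYAL3 had too few counts for shares, but its transcripts were listed differently. ENST00000621157 had 40.0 counts in CD44 high and 0 in CD44 low, and ENST00000359051 had 0 in CD44 high and 13.9 in CD44 low. ENST00000336307, with the same coding sequence as ENST00000621157 (417 residues), had 16.1 counts in CD44 high and 17.2 in CD44 low. HAS2 has 1 transcript in the table.

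**Figure D3:**
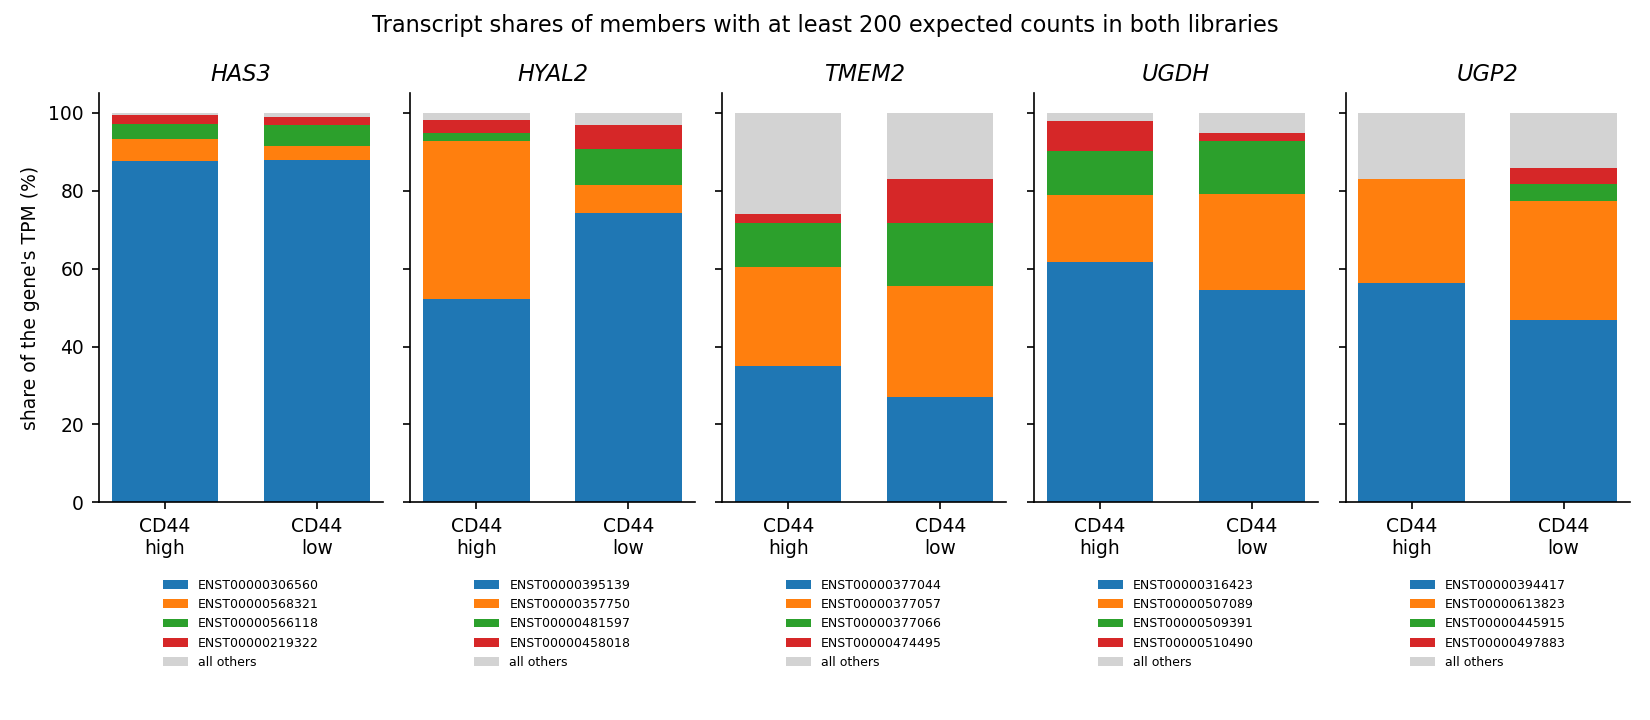
Shares of TPM (%) by transcript for the 5 members with at least 200 counts in both libraries, CD44 high on the left and CD44 low on the right of each panel; the 4 transcripts with the highest share are coloured and the others are grey. In HYAL2 the orange block, ENST00000357750, is 40.7% in CD44 high and 7.31% in CD44 low, while HAS3 is close to 88% blue in both.

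The rest of the UDP-glucuronic acid arm stayed within 2-fold. Apart from UGDH and UGP2, all 6 listed genes had at least 50 counts, 0 of them passed 2-fold in either direction, and the median log2 ratio was 0.09. GPI, the isomerase of glucose 6-phosphate and fructose 6-phosphate, had 11387 counts in CD44 high and 8582 in CD44 low, a ratio of 1.33 (1.29 to 1.37). The hexokinase HK1 had 2166 counts in CD44 high and 2889 in CD44 low, a ratio of 0.75 (0.71 to 0.79), whereas HK2 had 1772 and 1471 in the same order, a ratio of 1.21 (1.12 to 1.29). PGM2, a phosphoglucomutase, had a ratio of 1.07 (0.995 to 1.16).

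The UDP-N-acetylglucosamine arm supplies the other sugar. Of its 12 genes 10 had at least 50 counts, 0 passed 2-fold, and the median log2 ratio was -0.10. UAP1, which makes UDP-N-acetylglucosamine in the last step, was highest, with 1273 counts in CD44 high and 787 in CD44 low, a ratio of 1.62 (1.48 to 1.77). On log2(TPM + 1) the difference of UAP1 was 1.05, past 2-fold on that scale. GNPNAT1, an acetyltransferase of the same route, had 3577 counts in CD44 high and 3029 in CD44 low, and GNPDA1, a deaminase that runs against it, had a ratio of 1.22 (1.13 to 1.33). NAGK, the salvage kinase, had 413 counts in CD44 high and 527 in CD44 low, a ratio of 0.78 (0.69 to 0.89), and AMDHD2, the deacetylase, had a ratio of 0.80 (0.66 to 0.97).

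Exoglycosidases that finish hyaluronan in lysosomes stayed within 2-fold. HEXA, a subunit of beta-hexosaminidase, had a ratio of 0.79 (0.72 to 0.87), and GUSB, beta-glucuronidase, one of 0.91 (0.83 to 0.998). The further hyaluronidases SPAM1 and HYAL4 had at most 1 count.

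In the list of receptors and uptake proteins other than TMEM2, 4 of 9 genes had at least 50 counts, among them SHARPIN, an adaptor of a ubiquitin ligase that is no hyaluronan receptor. Of these 4, 1 passed 2-fold (CD44, the antigen of the sort), and 0 were lower past 2-fold. HMMR, an intracellular and surface hyaluronan-binding protein that also serves the mitotic spindle, was named after its value was seen. It had 6039 counts in CD44 high and 4438 in CD44 low, a ratio of 1.36 (1.31 to 1.42). LYVE1, STAB2 and TLR2 had 0 counts in both libraries, and STAB1 and LAYN at most 1. The list of hyaluronan-binding matrix proteins held 20 genes, not all of which are matrix proteins. Of these 20, 12 had 0 counts in both libraries and 3 had at least 50. HAPLN3, a link protein that ties proteoglycans to hyaluronan, had 31 counts in CD44 high and 88 in CD44 low, 2.84-fold lower. C1QBP, which binds hyaluronan but resides mainly in mitochondria, had 3719 counts in CD44 high and 2590 in CD44 low, a ratio of 1.44 (1.37 to 1.51), and HABP4 had 654 and 467 in the same order.

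**Figure D4:**
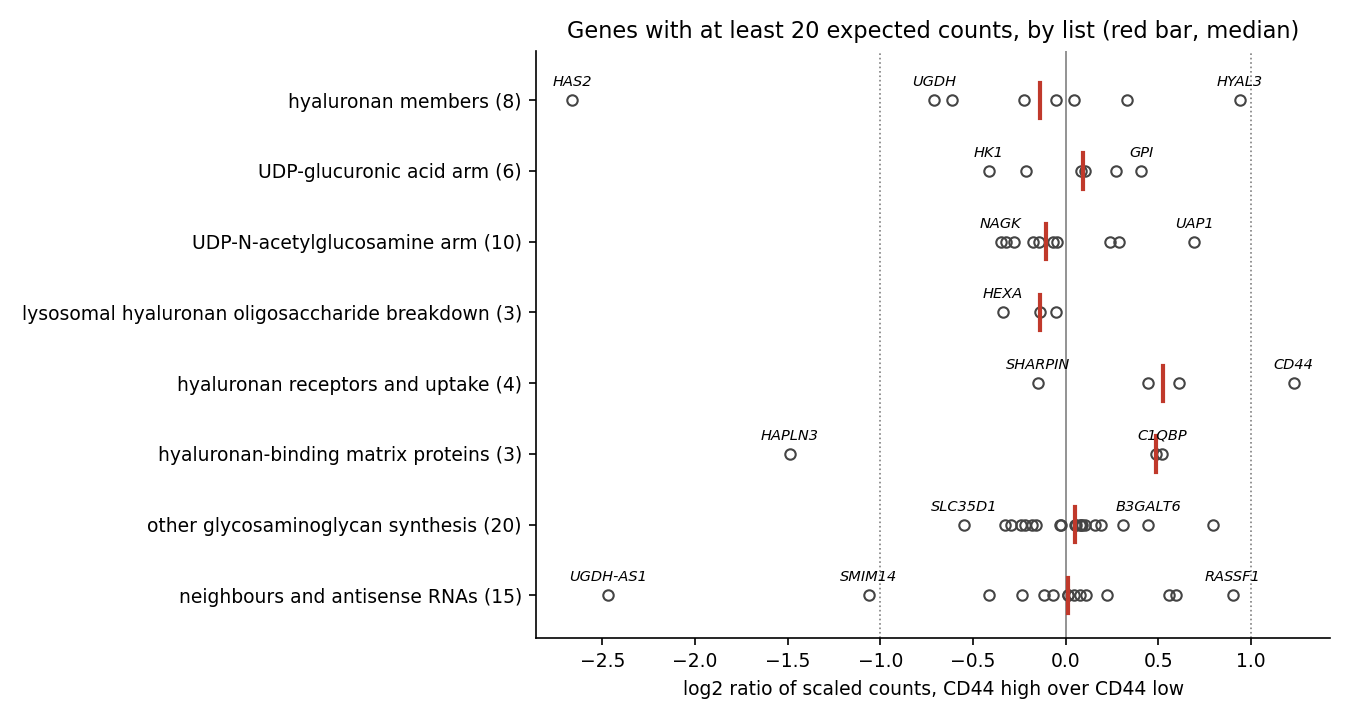
The log2 ratio of scaled counts, CD44 high over CD44 low, of genes that reached 20 counts, by list, with the number of genes in parentheses and the median as a red bar; members are shown in the top row only and dotted lines mark 2-fold. HAS2, HAPLN3, UGDH-AS1 and SMIM14 lie beyond the left line and CD44 beyond the right one.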

How the data were processed

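KYSE30-Luc-GFP cells were sorted into CD44 high and CD44 low fractions, with 1 library each, and groups were taken from the sample labels. The authors prepared poly(A) libraries, used bcl2fastq, aligned to GRCh38 with STAR and quantified with RSEM. How duplicates, strand and molecular identifiers were handled, and which annotation release was used, could not be read from these sources. The authors deposited expected counts divided by a size factor, and TPM, per gene and transcript. Unscaled counts were obtained by dividing each column by its smallest increment (size factors 0.999 for CD44 high and 1.0 for CD44 low). Columns of the authors' comparison (fold changes, posterior probabilities, FDR) were not used, and 0 other columns of per-sample values were present.

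Counts were rescaled by median-of-ratios factors, 0.5 was added, and log2 ratios were formed with CD44 high on top. Intervals are 95% Clopper-Pearson intervals, conditional on the summed counts of both libraries, on counts rounded to whole numbers. Reads are not shown to be independent molecules, so intervals and limits for 0 counts (3 counts) cover counting error only. The 2-fold rule needs 50 counts in a library and medians need 20. With 1 library per group no test was run. The scripts were tested on simulated data. Transcripts were looked up in GENCODE release 44 by identifier, whose coordinates differ in part from those of the deposited tables.

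Members and lists were chosen with earlier results of these data known. Named genes are all members, CD44, and from each list the genes past 2-fold, otherwise up to 3 with the largest ratio whose interval excludes equality and up to 3 with the highest TPM, and for HAS2 the 3 genes nearest in ratio. Further genes of the lists, among them RASSF1, IFRD2, TUSC2, LIAS, NAT6, UGDH-AS1, HAS2-AS1, HMMR, HABP4 and C1QBP, were named after their values were seen. A gene that the rule selects is not reported here. Of the list symbols, 4 had no row in the table. Alternatives were TMM factors (edgeR 4.0.16, R 4.3.3), total counts and log2(TPM + 1), each with and without mitochondrial genes, 5 in place of 0.5 as prior count, the deeper library thinned, other minimums and folds, and other members. Python 3.11.15, numpy, scipy and pandas were used.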

Additional observations from a re-analysis of the deposited data

How the results depend on the processing

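No paired analysis was possible because each group has 1 library. The log2 ratio of HAS2 was below 0 under all 7 alternatives (-2.69 to -1.20), and its smaller size on log2(TPM + 1) (-1.20) and on the same scale without mitochondrial genes (-1.48) follows from adding 1 to levels near 1 TPM. HAS2 was the 1 member counted lower under every scaling. With a minimum of 200 counts 0 members were lower, since HAS2 then has too few. At 1.5-fold 3 members were lower and 1 was higher. Scaled by total counts, and with the deeper library thinned, 1 member was higher past 2-fold (HYAL3, whose log2 ratio ran from 0.79 to 1.02). The median log2 ratio was -0.14 over 8 members in scaled counts and 0.03 over the same 8 on log2(TPM + 1). Over the 7 members with at least 1 TPM it was 0.11 on that scale, but -0.13 with mitochondrial genes left out of the TPM. Without HAS2 the median in scaled counts was -0.05. Of the 9 members with counts, 6 kept their sign under all 7 alternatives. HAS3 (-0.13 to 0.11), HYAL1 (-0.32 to 0.30) and UGP2 (-0.07 to 0.17) did not, and their direction is not settled. TMEM2 ran from -0.78 to -0.54 and UGDH from -0.84 to -0.61. Measured as shares of expected counts, 18 of 24 transcript shares moved by more than their counting error, since TPM weights short transcripts more; those of HYAL2 did not. Depth limits HYAL1, CEMIP, HAS2-AS1 and the low transcripts.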

Other observations

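Genes listed for the other glycosaminoglycans and for further uses of the same UDP sugars stayed within 2-fold where they could be judged. Of 23 such genes, which include OGT and MGEA5, 19 had at least 50 counts in a library, 0 passed 2-fold in either direction, and the median log2 ratio over 20 genes was 0.05. By the interval alone 7 of the 19 were lower and 4 higher in CD44 high, against 31% lower and 32.4% higher of all 12371 genes. The endoplasmic reticulum transporter of UDP-glucuronic acid and UDP-N-acetylgalactosamine, SLC35D1, had 758 counts in CD44 high and 1109 in CD44 low, a ratio of 0.68 (0.62 to 0.75), and SLC35D2, a relative, had 1059 and 1329 in the same order, a ratio of 0.80 (0.74 to 0.87). B3GALT6, which adds a galactose to the linker of proteoglycans, had 410 counts in CD44 high and 301 in CD44 low, a ratio of 1.36 (1.17 to 1.59). OGT and MGEA5, which add and remove N-acetylglucosamine on proteins inside cells, had ratios of 0.98 (0.94 to 1.02) and 0.88 (0.85 to 0.92).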
